A study of Mus musculus with 16 samples.

Results

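Lysosomal hydrolases and membrane proteins were followed as 41 genes in mouse embryonic stem cells leaving naive pluripotency. The genes were chosen by name out of 27179 in the count table, with earlier results of these data known. All 41 were found there. Their counts set beside those of all genes are therefore a description and not independent support. They fall into 11 proteases, 13 glycan-degrading enzymes (glycosidases and sulfatases), 8 lipid enzymes, lipid-handling and other soluble luminal proteins, and 9 membrane proteins. The 16 RNA-seq libraries make up 8 groups with 2 replicates in each. The cells were grown on gelatin either in 2i/LIF, a serum-free medium, or in serum/LIF+2i, which holds 10% serum. Both media hold LIF, a cytokine that keeps stem cells undifferentiated, and 2i, the pair of kinase inhibitors CHIR99021 (3 µM, against GSK3) and PD0325901 (1 µM, against MEK). Cells of both media had first been kept in serum/LIF and then adapted. In what follows they are the 2i/LIF cells and, for serum/LIF+2i, the serum cells. They were collected at 0 h, or at 12, 24 or 40 h after a wash and a change to serum-free medium without 2i or LIF (the exit). The exit medium was the 2i/LIF base for 2i/LIF cells and a DMEM and Neurobasal mix for serum/LIF+2i cells, both with 2 mM glutamine, so effects of the maintenance medium and of the exit medium base cannot be told apart. The protocol text names 24 and 40 h for serum/LIF+2i cells, and the 12 h group follows the sample titles. Neither the cell line nor whether replicates were separate cultures is given in the sources used here, so p-values measure the spread between these libraries, which may be technical.

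Lysosomes are acidic compartments in which hydrolases break down proteins, glycans and lipids delivered by endocytosis and autophagy. Most hydrolases are glycosylated, tagged with mannose phosphate in the Golgi and carried to the lysosome by receptors. Many are made as inactive precursors that proteases cut. Heavily glycosylated membrane proteins line the inner face of the compartment, and other membrane proteins let amino acids, cholesterol and ions out. Transcription factors of the MiT/TFE family (Mitf, Tfeb, Tfe3) bind CACGTG-containing sites in promoters of many of these genes. Folliculin and its partners help to hold these factors in the cytoplasm when nutrients are plentiful, and Tfe3 is known in mouse embryonic stem cells as a factor that opposes exit from the naive state.

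Total counts per library ran from 5931381 to 11142744. Counts were scaled to library size (CPM) with TMM factors, a between-library scaling, of 0.972 to 1.04. Of the 41 genes, 39 passed a filter on low counts together with others, 14288 genes in all. Ctsh, an aminopeptidase of the cathepsin family, had 0 to 8 counts per library and Ctso, another cysteine cathepsin, 0 to 5, and neither was tested. The 41 genes held 0.562% and 0.558% of all counts in the 2i/LIF libraries at 0 h and 0.235% and 0.248% at 40 h. In serum cells the share was 0.469% and 0.487% at 0 h and 0.261% and 0.260% at 40 h. The threshold for a call was an adjusted p below 0.05 (edgeR's quasi-likelihood F test, Benjamini-Hochberg over 14288 genes). No called member had overlapping groups in any comparison of 2 groups. With 2 libraries per group this largely follows from the call itself and adds no support to it.

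The stem cell identity of the libraries was checked with marker lists. At 40 h, 4 of 6 embryonic stem cell markers were lower and 1 higher in each medium (all genes 34.7% lower and 34.1% higher in 2i/LIF cells, and 35.3% and 35.3% in serum cells). Utf1, a chromatin factor of pluripotent cells, was the higher one, with log2 changes of 4.33 (SE 0.077, adjusted p = 2.78e-38) and 2.99 (SE 0.064, adjusted p = 2.62e-35). Nanog, a naive-state factor, had log2 changes of -4.58 in 2i/LIF cells and -5.69 in serum cells. Pou5f1, the core pluripotency factor, was not called at 40 h, with -0.013 (SE 0.035, adjusted p = 0.749) and -0.065 (SE 0.034, adjusted p = 0.0831). The summed level of the list was 2894 to 2975 CPM at 0 h and 1272 to 1308 at 40 h in 2i/LIF cells, and 3271 to 3329.5 and 1237 to 1285 in serum cells. Markers of 4 other cell types were low or rested on single genes. Primitive endoderm markers (8 genes) summed to 6.23 to 6.72 CPM at 0 h and 12.3 to 14.7 at 40 h in 2i/LIF cells, and to 6.91 to 7.05 and 18.2 to 19.7 in serum cells. Fibroblast markers (7 genes) stood at 3.96 to 4.10 CPM before exit and 15.2 to 22.3 after 40 h in 2i/LIF cells, and at 2.497 to 2.64 and 10.5 to 11.7 in serum cells, mostly through Dcn, with Postn at 0 counts in every library. Trophoblast markers (6 genes) stood at 18.8 to 22.2 CPM before exit and 4.76 to 4.76 after 40 h in 2i/LIF cells, and at 16.9 to 20.9 and 5.95 to 6.48 in serum cells. The part of these 3 lists in the results was not tested. Macrophage markers (7 genes) also had a lower sum after exit, at 234 to 237 CPM before exit, 159 to 163 after 12 h, 79.0 to 84.1 after 24 h and 14.8 to 18.9 after 40 h in 2i/LIF cells, and at 197 to 205, 188 to 189, 66.3 to 67.5 and 9.97 to 11.8 in serum cells. The sum of the 41 lysosomal genes fell as well, at 5743 to 5751, 3350.5 to 3409.9, 2881 to 2891 and 2314 to 2421 CPM in 2i/LIF cells. In serum cells it was 4787 to 4899, 2829.6 to 2836, 2645 to 2670.3 and 2501 to 2505 CPM. Whether these sums are related was not tested. Nearly all of the macrophage marker sum was Laptm5, which reached 237 CPM. Tyrobp had 0 counts in every library, Csf1r and Adgre1 at most 1, Ctss at most 5 and Ptprc at most 7, and Cd14 reached 1.76 CPM, so the defining macrophage markers were at or near 0 throughout.

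Promoter windows of 300 bases (250 before to 50 after the annotated start, RefSeq, GRCm38.p6) were found for 35 of the 41 genes. The letters CACGTG, which read the same on both strands, occurred in at least 1 window of 12 of the 35 genes (34.3%) and of 8.09% of 27025 genes with a window. The longer TCACGTGA, which contains CACGTG and is also its own reverse complement, occurred in 5 of 35 (14.3%) and in 1.12% of all genes with a window. By class, CACGTG was found in 5 of 9 proteases, 4 of 12 glycan-degrading enzymes, 3 of 7 membrane proteins and 0 of 7 lipid enzymes and luminal proteins. A match is a description of these letters and not evidence of binding. The 6 stretches below are shown because they hold TCACGTGA or, for Lamp1, the most copies of CACGTG. The motif letters are in capitals, and each stretch is written 5′ to 3′ on the gene's strand. The Ctsa stretch is chr2:164833740-164833802 on the plus strand and the Ctsd stretch chr7:142387899-142388077 on the minus strand. Gla has chrX:134601173-134601253 on the minus strand and Lamp1 has chr8:13159080-13159171 on the plus strand. The Mcoln1 stretch lies at chr8:3500428-3500500 on the plus strand and the Cln3 stretch at chr7:126583331-126583405 on the minus strand.
Ctsa: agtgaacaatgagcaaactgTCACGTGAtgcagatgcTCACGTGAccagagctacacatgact
Ctsd: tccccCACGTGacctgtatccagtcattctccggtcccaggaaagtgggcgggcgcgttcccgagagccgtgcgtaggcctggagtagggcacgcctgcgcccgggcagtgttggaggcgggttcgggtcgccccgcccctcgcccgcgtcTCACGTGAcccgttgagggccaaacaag
Gla: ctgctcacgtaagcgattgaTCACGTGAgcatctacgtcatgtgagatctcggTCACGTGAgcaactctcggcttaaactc
Lamp1: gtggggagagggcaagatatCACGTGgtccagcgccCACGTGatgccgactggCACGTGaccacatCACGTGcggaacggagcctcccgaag
Mcoln1: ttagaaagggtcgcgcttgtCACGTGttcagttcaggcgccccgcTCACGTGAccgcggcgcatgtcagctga
Cln3: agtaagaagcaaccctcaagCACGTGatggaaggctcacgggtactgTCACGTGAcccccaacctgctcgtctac
Lamp1 carried 4 copies of CACGTG within 92 bases around its start, and Ctsa and Gla carried 2 copies of TCACGTGA each. At 40 h the median log2 change was -0.98 in 2i/LIF cells and -0.73 in serum cells for the 12 genes with CACGTG, of which 10 and 8 were lower and 0 and 2 higher (all genes 34.7% lower and 34.1% higher in 2i/LIF cells, and 35.3% and 35.3% in serum cells). For the 22 tested genes with a window and without the letters it was -0.86 and -0.89, with 16 and 17 lower and 4 and 4 higher. No test was made of this difference.

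Before exit, levels of the 41 genes spanned several orders of magnitude when compared per kilobase of gene length (RPKM). In 2i/LIF cells at 0 h, Lamp1, a main structural glycoprotein of the lysosomal membrane, was highest at 282 ± 2.65 RPKM (SD, n = 2, as for all levels here). Next came Ctsd, the aspartic protease cathepsin D, at 170.4 ± 4.33 RPKM, Psap, the precursor of the saposins that help sphingolipid hydrolases, at 170.0 ± 5.71, Ctsl, a cysteine endopeptidase, at 167 ± 12.0, and Npc2, which passes cholesterol to Npc1, at 165 ± 1.5. These 4 did not differ beyond their spread. Grn, the granulin precursor, followed at 142 ± 0.959 and Asah1, acid ceramidase, at 124 ± 1.30 RPKM. At the lower end stood Galns at 3.62 ± 0.119, Smpd1 at 2.37 ± 0.590, Lipa at 1.20 ± 0.546 and Naglu at 0.711 ± 0.121 RPKM. In serum cells at 0 h the first 3 were Lamp1 at 255 ± 12.5, Psap at 193 ± 5.24 and Ctsd at 175 ± 4.26 RPKM.

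Most of the genes were lower after exit from either medium, as early as 12 h. In 2i/LIF cells, 29 of 39 were lower and 4 higher at 12 h, where 23.7% of all tested genes were lower and 21.0% higher. At 24 h the counts were 29 lower and 5 higher (all genes 29.6% and 29.2%), and at 40 h 30 lower and 5 higher (all genes 34.7% and 34.1%). In serum cells, 29 were lower and 4 higher at 12 h (all genes 25.9% and 25.3%). At 24 h 27 were lower and 5 higher (all genes 32.0% and 32.4%), and at 40 h 28 lower and 7 higher (all genes 35.3% and 35.3%). The median log2 change of the 39 genes at 12, 24 and 40 h was -0.76, -0.83 and -0.87 in 2i/LIF cells, and -0.67, -0.77 and -0.76 in serum cells. The median of all tested genes at 40 h was 0.0052 and -0.0032. The 3 times of a medium share their 0 h libraries, so their counts are not independent. In RNA of whole cultures, fewer cells of a type and less RNA per cell cannot be told apart.

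Direction at 40 h was shared between the media for most genes. In both media 27 genes were lower and 5 higher: Ctsz, Gusb, Smpd1, Lipa and Laptm4b. Mcoln1 was lower in 2i/LIF cells and higher in serum cells. Galns and Cln3 were called, as lower, in 2i/LIF cells alone, Ctsf (higher) and Scarb2 (lower) in serum cells alone, and Laptm4a and Naglu in neither. At every later time 27 genes were lower in 2i/LIF cells, 24 in serum cells and 24 in both. Calls shared between media or between times were not counted over all genes. Whether such agreement is particular to the members was therefore not tested.

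**Figure D1:**
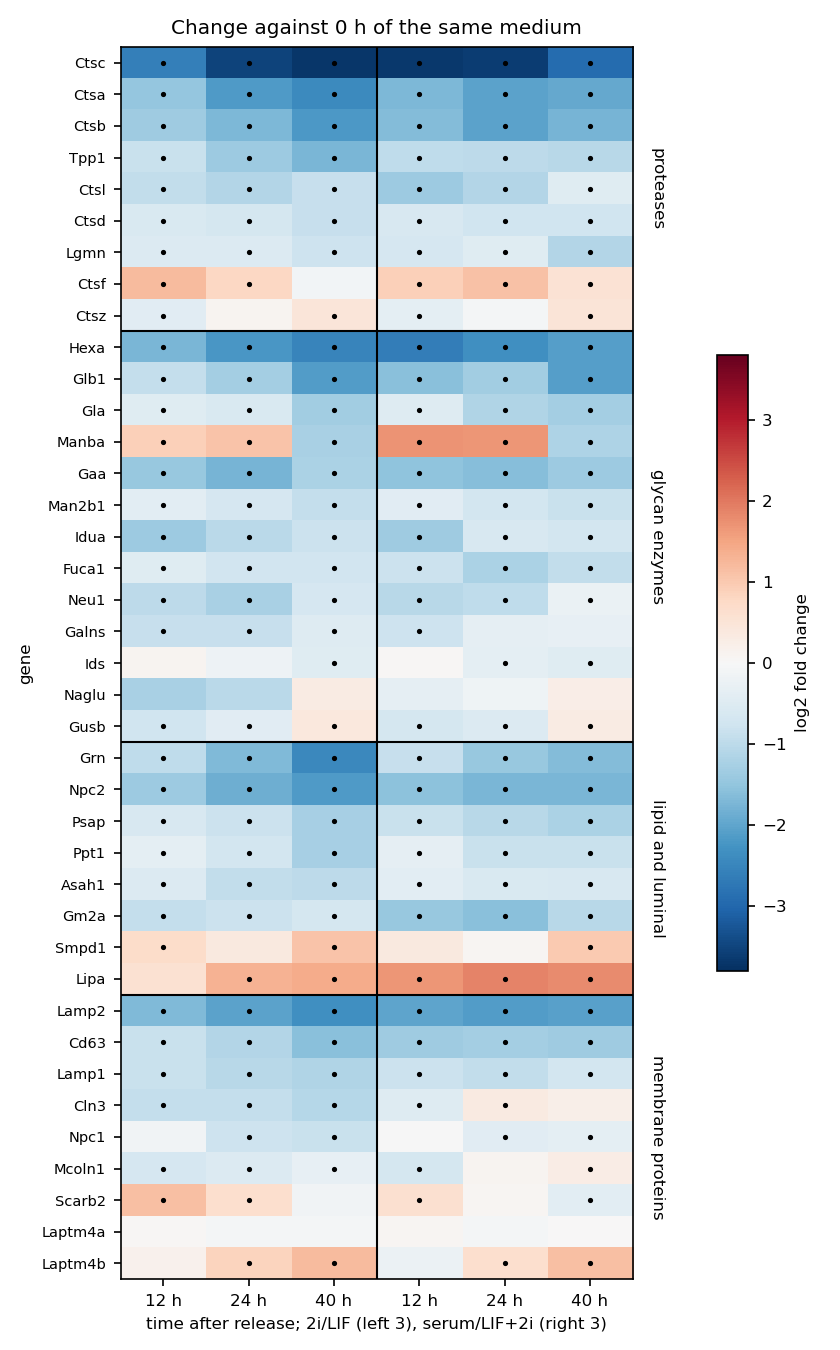
Log2 change of the 39 tested genes (rows, by class) at 12, 24 and 40 h after exit against 0 h in 2i/LIF cells and in serum cells (columns), from blue for lower to red for higher. Most rows are blue in all 6 columns. Red cells called higher lie in the rows of Ctsf, Ctsz, Gusb, Manba, Smpd1, Lipa, Scarb2, Mcoln1, Cln3 and Laptm4b.

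Summed over each class, the classes took different courses. The summed level of the 11 proteases was 1803 ± 27.8 CPM (SD, n = 2) at 0 h in 2i/LIF cells, 904 ± 16.9 at 12 h and 693 ± 39.6 at 40 h, so most of the fall lay before 12 h. Lipid enzymes and luminal proteins went from 1761 ± 13.1 CPM to 983 ± 7.54 and 604 ± 8.37. Membrane proteins went from 1367 ± 23.9 CPM to 869 ± 12.9 and 721 ± 13.9. As a sum, the glycan-degrading enzymes had their largest drop after 24 h: 815 ± 15.2 CPM before exit, 625 ± 4.73 after 12 h, 604 ± 26.2 after 24 h and 349.7 ± 13.3 after 40 h. In serum cells that class held 727 ± 26.0, 637 ± 9.39, 623 ± 3.74 and 328 ± 9.32 CPM. The late drop of this sum reflects Manba, which rose by 12 h and fell after 24 h, as described with its class. Gene by gene, 10 of the 13 were already lower at 12 h in each medium and 1, Manba, higher. The shares over all genes were 23.7% and 21.0% in 2i/LIF cells and 25.9% and 25.3% in serum cells. The median log2 change of the class was -0.88 and -0.79 at 12 h, and -0.83 and -0.84 at 40 h. Proteases in serum cells fell from 1500.1 ± 35.5 CPM to 688 ± 4.20 at 12 h and 669.8 ± 8.53 at 24 h and stood at 758 ± 12.8 at 40 h.

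**Figure D2:**
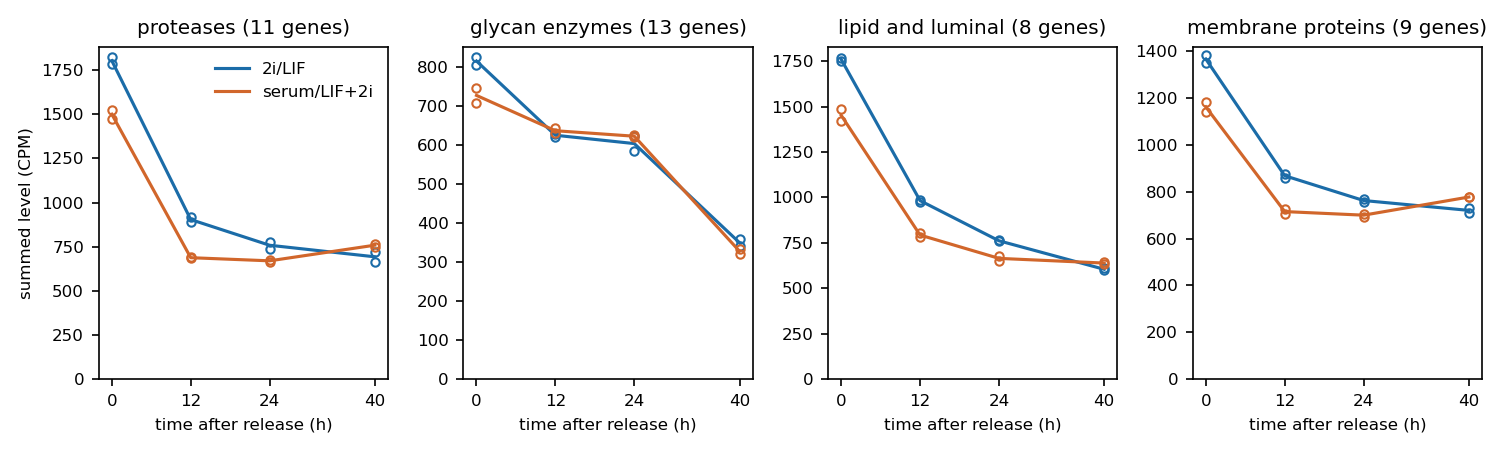
Summed CPM of the members of each class (y axis) by hours after exit (x axis) for 2i/LIF cells and serum cells, with 1 point per library. The proteases drop mainly between 0 and 12 h, and the glycan-degrading enzymes in 2i/LIF cells stay near 604 CPM at 24 h before falling to 349.7 CPM at 40 h. The sum of the glycan-degrading enzymes holds the transient rise of Manba.

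Of the proteases, 7 of 9 were lower and 1 higher at 40 h in 2i/LIF cells (all genes 34.7% and 34.1%). In serum cells 7 were lower and 2 higher (all genes 35.3% and 35.3%). The largest fall belonged to Ctsc, cathepsin C, a dipeptidyl peptidase that activates other proteases. Its level in 2i/LIF cells was 119 and 132 CPM before exit, 24.4 and 17.1 after 12 h, 9.02 and 13.2 after 24 h and 9.02 and 10.3 after 40 h. Levels in serum cells were 65.2 and 72.1 CPM before exit, 5.54 and 5.32 after 12 h, 5.42 and 5.71 after 24 h and 9.39 and 8.52 after 40 h. Every library after exit lay far below both 0 h libraries of its medium, and in serum cells the 40 h libraries lay above those of 12 and 24 h. The log2 change at 40 h was -3.70 (SE 0.11, adjusted p = 2.06e-51) in 2i/LIF cells, or 13.0-fold lower, and -2.93 (SE 0.11, adjusted p = 1.5e-42) in serum cells.

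Ctsa, a carboxypeptidase that also stabilises Glb1 and Neu1 in a complex, stood at 286 and 283 CPM before exit and 49.8 and 56.7 CPM after 40 h in 2i/LIF cells and at 223 and 210.2 CPM before exit and 59.6 and 53.5 CPM after 40 h in serum cells. It was 5.35-fold and 3.82-fold lower, with log2 changes of -2.42 (SE 0.06, adjusted p = 4.54e-67) and -1.93 (SE 0.057, adjusted p = 1.09e-59). Ctsb, a cysteine protease with endo- and exopeptidase activity, had 422 and 377 CPM before exit and 86.7 and 89.5 CPM after 40 h in 2i/LIF cells, and 280.2 and 299 CPM before exit and 81.9 and 88.4 CPM after 40 h in serum cells. All 40 h libraries were below all 0 h libraries for both genes, and Ctsb changed by -2.18 (SE 0.053, adjusted p = 3.47e-62) and -1.77 (SE 0.051, adjusted p = 3.28e-55). Tpp1, the tripeptidyl peptidase lost in a form of childhood neuronal ceroid lipofuscinosis, went from 189 and 203 to 57.9 and 61.0 CPM in 2i/LIF cells and from 147 and 153 to 73.2 and 72.0 CPM in serum cells. Tpp1 was 3.31-fold lower in the former and 2.07-fold in the latter, at -1.72 (SE 0.059, adjusted p = 1.57e-53) and -1.05 (SE 0.055, adjusted p = 2.93e-36).

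The remaining abundant proteases also fell, in 2i/LIF cells by less than those above. Ctsl had 312 and 345 CPM before exit, 177 and 169.9 after 12 h, 155 and 147 after 24 h and 168 and 192 after 40 h in 2i/LIF cells, and 288 and 301 CPM before exit, 116 and 109 after 12 h, 133 and 138 after 24 h and 214 and 215 after 40 h in serum cells. In serum cells its 40 h libraries stood between those of 12 and 0 h. Ctsl was lower at 40 h, with -0.87 (SE 0.048, adjusted p = 4.09e-31) and -0.46 (SE 0.045, adjusted p = 7.28e-16) on the log2 scale. Ctsd changed by -0.87 and -0.76, and Lgmn, the asparaginyl endopeptidase that processes other cathepsins, by -0.79 and -1.10, all called lower.

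Ctsz and Ctsf did not follow their class. Ctsz, a carboxypeptidase, had 42.6 and 48.0 CPM before exit, 35.5 and 32.6 after 12 h, 47.3 and 50.0 after 24 h and 59.5 and 64.8 after 40 h in 2i/LIF cells, and 41.9 and 46.6 CPM before exit, 35.7 and 32.8 after 12 h, 41.5 and 43.0 after 24 h and 60.0 and 63.1 after 40 h in serum cells. It was lower at 12 h (-0.42 and -0.38) and higher at 40 h, by 0.45 (SE 0.084, adjusted p = 1.3e-06) and 0.48 (SE 0.079, adjusted p = 5.96e-08). Ctsf, a cysteine endopeptidase, stood at 10.9 and 13.4 CPM before exit, 28.2 and 27.4 after 12 h, 21.5 and 20.2 after 24 h and 11.1 and 11.5 after 40 h in 2i/LIF cells. Serum cells gave 12.2 and 12.6 CPM before exit, 22.8 and 23.5 after 12 h, 26.1 and 27.6 after 24 h and 18.6 and 17.3 after 40 h. Both libraries of 12 and 24 h lay above those of 0 h in each medium. Ctsf was 2.28-fold and 1.87-fold higher at 12 h. At 40 h it was not called in 2i/LIF cells, at -0.10 (SE 0.16, adjusted p = 0.587), and higher in serum cells, at 0.54 (SE 0.14, adjusted p = 0.000295).

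Among the glycan-degrading enzymes, 11 of 13 were lower and 1 higher at 40 h in 2i/LIF cells (all genes 34.7% and 34.1%). In serum cells 10 were lower and 1 higher (all genes 35.3% and 35.3%). Hexa, the hexosaminidase gene lost in Tay-Sachs disease, had 144 and 154 CPM before exit, 43.3 and 45.6 after 12 h, 31.0 and 33.0 after 24 h and 25.3 and 27.6 after 40 h in 2i/LIF cells. For serum cells the values were 105 and 112 CPM before exit, 17.8 and 17.6 after 12 h, 20.1 and 23.2 after 24 h and 25.9 and 25.3 after 40 h. Hexa fell most between 0 and 12 h and stayed low in all later libraries. At 40 h it was 5.64-fold and 4.25-fold lower, at -2.496 (SE 0.079, adjusted p = 1.77e-57) and -2.09 (SE 0.076, adjusted p = 3.31e-51). Glb1, the lysosomal β-galactosidase, had 157 and 167 CPM before exit and 36.1 and 38.6 CPM after 40 h in 2i/LIF cells, and 125 and 139.8 CPM before exit and 30.7 and 31.2 CPM after 40 h in serum cells. Its groups did not overlap, and the log2 changes were -2.12 (SE 0.071, adjusted p = 1.34e-54) and -2.10 (SE 0.07, adjusted p = 4.59e-55), or 4.35-fold and 4.28-fold lower.

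Manba, the β-mannosidase that takes the last mannose from N-glycan remnants, rose and then fell. Its level in 2i/LIF cells was 143 and 138 CPM before exit, 271 and 258 after 12 h, 293 and 303 after 24 h and 59.2 and 61.0 after 40 h. The serum cells had 118 and 105 CPM before exit, 355 and 367 after 12 h, 360.3 and 356 after 24 h and 52.3 and 45.7 after 40 h. All libraries of 12 and 24 h stood above those of 0 h, and all of 40 h below. Manba was 1.88-fold higher at 12 h in 2i/LIF cells, at 0.91 (SE 0.049, adjusted p = 2.85e-34), and 3.24-fold higher in serum cells, at 1.70 (SE 0.049, adjusted p = 2.09e-60). At 40 h it was lower, at -1.23 (SE 0.061, adjusted p = 4.28e-38) and -1.18 (SE 0.06, adjusted p = 5.89e-37). Between 24 and 40 h alone it dropped 4.96-fold and 7.28-fold. Manba was the only member higher at 12 h and lower at 40 h in 2i/LIF cells. In serum cells Scarb2 took the same course.

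Gusb, β-glucuronidase, went the other way in time. It had 37.4 and 36.9 CPM before exit, 21.0 and 22.9 after 12 h, 24.3 and 31.2 after 24 h and 50.6 and 47.4 after 40 h in 2i/LIF cells, and 36.1 and 38.6 CPM before exit, 23.2 and 23.7 after 12 h, 23.7 and 27.9 after 24 h and 47.1 and 45.5 after 40 h in serum cells. Its 40 h libraries were the highest in each medium, and those of 12 and 24 h lay below 0 h. At 12 h it was lower (-0.76 and -0.67), and at 40 h higher, by 0.40 (SE 0.095, adjusted p = 0.000109) and 0.31 (SE 0.089, adjusted p = 0.00129). Neu1, the sialidase held in the complex with Ctsa, had 30.0 and 30.5 CPM before exit, 14.9 and 15.5 after 12 h, 12.4 and 13.2 after 24 h and 16.9 and 21.9 after 40 h in 2i/LIF cells. Levels in serum cells were 23.2 and 26.7 CPM before exit, 12.3 and 11.6 after 12 h, 14.6 and 11.3 after 24 h and 21.9 and 19.5 after 40 h. Neu1 was lowest at 24 h in 2i/LIF cells and partly back at 40 h, when it was lower, at -0.65 (SE 0.12, adjusted p = 2.16e-06) and -0.27 (SE 0.12, adjusted p = 0.0368). The call for serum cells was lost in DESeq2 (adjusted p = 0.2), and in the edgeR test without 0 h replicate 2 (log2 change -0.16, adjusted p = 0.348) or without 40 h replicate 2 (-0.19, adjusted p = 0.229). It was also lost under 4 other choices of scaling or filter, with adjusted p from 0.0528 to 0.148.

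The other members of the class were lower or not called. Gaa, the acid α-glucosidase that degrades glycogen, had 69.3 and 76.7 CPM before exit and 28.2 and 36.1 CPM after 40 h in 2i/LIF cells, and 103 and 116 CPM before exit and 42.8 and 41.2 CPM after 40 h in serum cells, and its log2 changes were -1.19 and -1.38. Gla, the α-galactosidase lost in Fabry disease, changed by -1.33 and -1.30. Man2b1, the α-mannosidase, changed by -0.90 and -0.84, and Fuca1, the α-fucosidase, by -0.73 and -0.94. For the heparan and dermatan sulfate enzymes Idua and Ids the values were -0.83 and -0.70, and -0.47 and -0.46, all called. Galns, a keratan sulfate sulfatase, was called in 2i/LIF cells at -0.49 (SE 0.21, adjusted p = 0.0298) and not in serum cells at -0.32 (SE 0.21, adjusted p = 0.153). Naglu, a heparan sulfate enzyme with 3 to 35 counts per library, was not called, at 0.32 and 0.26 with standard errors of 0.43 and 0.36.

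Of the lipid enzymes and luminal proteins, 6 of 8 were lower and 2 higher at 40 h in 2i/LIF cells (all genes 34.7% and 34.1%). In serum cells 6 were lower and 2 higher (all genes 35.3% and 35.3%). Npc2 had 536 and 543 CPM before exit, 205 and 211 after 12 h, 154 and 147 after 24 h and 128 and 117 after 40 h in 2i/LIF cells. Serum cells gave 355 and 366 CPM before exit, 123 and 122 after 12 h, 106 and 111 after 24 h and 108 and 108 after 40 h. In 2i/LIF cells each later time lay below the one before, whereas in serum cells the 3 later times stood close together. Npc2 was 4.41-fold and 3.33-fold lower at 40 h, at -2.14 (SE 0.045, adjusted p = 6.04e-76) and -1.74 (SE 0.045, adjusted p = 1.06e-66). Grn, whose product is cut into granulins in the lysosome, had 333 and 329.6 CPM before exit, 169 and 167 after 12 h, 97.3 and 111 after 24 h and 62.4 and 58.3 after 40 h in 2i/LIF cells, and 194 and 209 CPM before exit, 109 and 111 after 12 h, 71.3 and 78.2 after 24 h and 66.4 and 62.6 after 40 h in serum cells. It fell at each step in both media and reached 5.48-fold and 3.12-fold lower, at -2.45 (SE 0.056, adjusted p = 7.9e-72) and -1.64 (SE 0.055, adjusted p = 7.09e-55).

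Psap stood at 475 and 453 CPM before exit and 188 and 201 CPM after 40 h in 2i/LIF cells and 516 and 536 CPM before exit and 231 and 226 CPM after 40 h in serum cells. It was lower, at -1.25 (SE 0.042, adjusted p = 8.5e-55) and -1.20 (SE 0.039, adjusted p = 7.17e-56) on the log2 scale, with no overlap between the times. Asah1 changed by -1.001 and -0.60, Ppt1, the thioesterase that removes fatty acids from proteins, by -1.25 and -0.85, and Gm2a, a ganglioside activator, by -0.68 and -1.04, all called lower.

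Lipa and Smpd1 rose from low levels. Lipa, the acid lipase that frees cholesterol and fatty acids from lipoprotein lipids, had 2.41 and 4.71 CPM before exit, 6.03 and 4.95 after 12 h, 9.44 and 8.81 after 24 h and 8.64 and 10.9 after 40 h in 2i/LIF cells. For serum cells the values were 1.76 and 2.35 CPM before exit, 7.43 and 6.07 after 12 h, 7.52 and 7.74 after 24 h and 7.58 and 6.87 after 40 h. These values rest on 12 to 88 counts per library. At 40 h Lipa was 2.67-fold and 3.50-fold higher, at 1.42 (SE 0.24, adjusted p = 1.74e-07) and 1.81 (SE 0.28, adjusted p = 4.71e-09). Smpd1, acid sphingomyelinase, had 31 to 124 counts per library, with 6.72 and 4.71 CPM before exit, 9.87 and 8.69 after 12 h, 9.16 and 5.47 after 24 h and 13.8 and 10.2 after 40 h in 2i/LIF cells, and 5.73 and 4.85 CPM before exit, 6.35 and 7.34 after 12 h, 5.64 and 5.50 after 24 h and 10.7 and 10.4 after 40 h in serum cells. Its 40 h libraries were the highest of each medium, and it was 2.13-fold and 1.99-fold higher, at 1.09 (SE 0.21, adjusted p = 2.91e-06) and 0.99 (SE 0.20, adjusted p = 8.42e-06).

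Of the membrane proteins, 6 of 9 were lower and 1 higher at 40 h in 2i/LIF cells (all genes 34.7% and 34.1%). In serum cells 5 were lower and 2 higher (all genes 35.3% and 35.3%), counts not far from those shares for 9 genes. The paired glycoproteins of the lysosomal membrane both fell. Lamp1, whose start carries the 4 CACGTG copies shown above, had 641 and 633 CPM before exit, 367 and 348 after 12 h, 317 and 298 after 24 h and 287 and 295 after 40 h in 2i/LIF cells, and 595 and 555 CPM before exit, 332 and 321 after 12 h, 305 and 301 after 24 h and 358 and 353 after 40 h in serum cells. Lamp2, which also serves in autophagy, had 263 and 261 CPM before exit, 78.0 and 85.7 after 12 h, 64.0 and 65.3 after 24 h and 47.6 and 56.1 after 40 h in 2i/LIF cells, and 198 and 208 CPM before exit, 54.9 and 46.9 after 12 h, 51.9 and 41.9 after 24 h and 47.2 and 49.5 after 40 h in serum cells. All later libraries of both genes were below those of 0 h. At 40 h Lamp1 was 2.19-fold and 1.62-fold lower, at -1.13 (SE 0.039, adjusted p = 3.1e-53) and -0.70 (SE 0.038, adjusted p = 2.85e-35). Lamp2 was 5.07-fold and 4.21-fold lower, at -2.34 (SE 0.065, adjusted p = 9.88e-48) and -2.07 (SE 0.062, adjusted p = 3.6e-45). Cd63, a tetraspanin of late endosomes and exosomes, had 89.8 and 74.3 CPM before exit and 27.2 and 27.0 CPM after 40 h in 2i/LIF cells and 71.6 and 69.5 CPM before exit and 28.0 and 27.2 CPM after 40 h in serum cells. It was lower, at -1.59 (SE 0.089, adjusted p = 6.83e-34) and -1.35 (SE 0.084, adjusted p = 1.47e-30).

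Mcoln1, the mucolipin calcium channel, and Cln3, the membrane protein lost in juvenile Batten disease, took different courses in the media. Cln3 had 52.9 and 48.5 CPM before exit, 27.3 and 27.0 after 12 h, 24.6 and 29.8 after 24 h and 22.9 and 25.0 after 40 h in 2i/LIF cells. The serum cells had 27.3 and 24.8 CPM before exit, 17.3 and 19.7 after 12 h, 32.0 and 34.4 after 24 h and 29.7 and 30.7 after 40 h. In 2i/LIF cells all later libraries were below those of 0 h, whereas in serum cells only the 12 h libraries were. Cln3 was 2.11-fold lower at 40 h in 2i/LIF cells, at -1.08 (SE 0.10, adjusted p = 9.43e-18). For serum cells the gene was 1.27-fold higher at 24 h, at 0.35 (SE 0.10, adjusted p = 0.00223), and not called at 40 h, at 0.21 (SE 0.10, adjusted p = 0.0625). At 40 h it passed the threshold, as higher, under 5 alternatives, with the lowest adjusted p of 0.0104 under scaling by library size alone (0.29 on the log2 scale).

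Mcoln1 had 35.3 and 37.7 CPM before exit, 22.6 and 24.2 after 12 h, 25.8 and 25.7 after 24 h and 29.8 and 29.5 after 40 h in 2i/LIF cells, and 30.1 and 28.5 CPM before exit, 17.6 and 19.5 after 12 h, 30.9 and 31.5 after 24 h and 34.6 and 37.2 after 40 h in serum cells. It was lower at 40 h in 2i/LIF cells, at -0.30 (SE 0.10, adjusted p = 0.00702), and higher in serum cells, at 0.29 (SE 0.096, adjusted p = 0.0056). Without 2i/LIF 0 h replicate 2 the first value was -0.25 (adjusted p = 0.0867). Without serum/LIF+2i 0 h replicate 2 the second was 0.25 (adjusted p = 0.064), and without 40 h replicate 2 it was 0.24 (adjusted p = 0.0591). DESeq2 gave an adjusted p of 0.0578 for the fall in 2i/LIF cells.

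Laptm4b rose in both media while its relative Laptm4a did not pass the test at any time. Laptm4b, an endosomal membrane protein that binds lipids, had 35.5 and 34.8 CPM before exit, 38.9 and 40.5 after 12 h, 64.1 and 61.8 after 24 h and 79.3 and 82.3 after 40 h in 2i/LIF cells, and 30.3 and 36.0 CPM before exit, 30.0 and 26.9 after 12 h, 51.8 and 50.4 after 24 h and 70.8 and 74.5 after 40 h in serum cells. All 24 and 40 h libraries lay above those of 0 h, and it was 2.299-fold and 2.19-fold higher at 40 h, at 1.20 (SE 0.084, adjusted p = 2.34e-26) and 1.13 (SE 0.081, adjusted p = 8.69e-26). Laptm4a had 156 and 156 CPM before exit and 149.9 and 144 CPM after 40 h in 2i/LIF cells, and 150.3 and 141 CPM before exit and 144 and 149 CPM after 40 h in serum cells. Its log2 change at 40 h was -0.087 (SE 0.052; 95% interval -0.19 to 0.016; adjusted p = 0.127) and 0.0074 (SE 0.049; 95% interval -0.09 to 0.11; adjusted p = 0.9). Scarb2, which carries glucocerebrosidase to the lysosome, had 26.0 and 24.9 CPM before exit, 59.1 and 53.3 after 12 h, 40.1 and 39.1 after 24 h and 20.8 and 26.0 after 40 h in 2i/LIF cells, and 26.7 and 25.3 CPM before exit, 39.9 and 39.4 after 12 h, 27.2 and 27.8 after 24 h and 19.8 and 19.3 after 40 h in serum cells. It was 2.21-fold and 1.52-fold higher at 12 h, and lower at 40 h in serum cells, at -0.41 (SE 0.11, adjusted p = 0.000672). Npc1, the cholesterol transporter that takes its load from Npc2, was not called at 12 h and lower at 40 h, at -0.84 (SE 0.078, adjusted p = 1.96e-18) and -0.36 (SE 0.079, adjusted p = 3.46e-05).

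**Figure D3:**
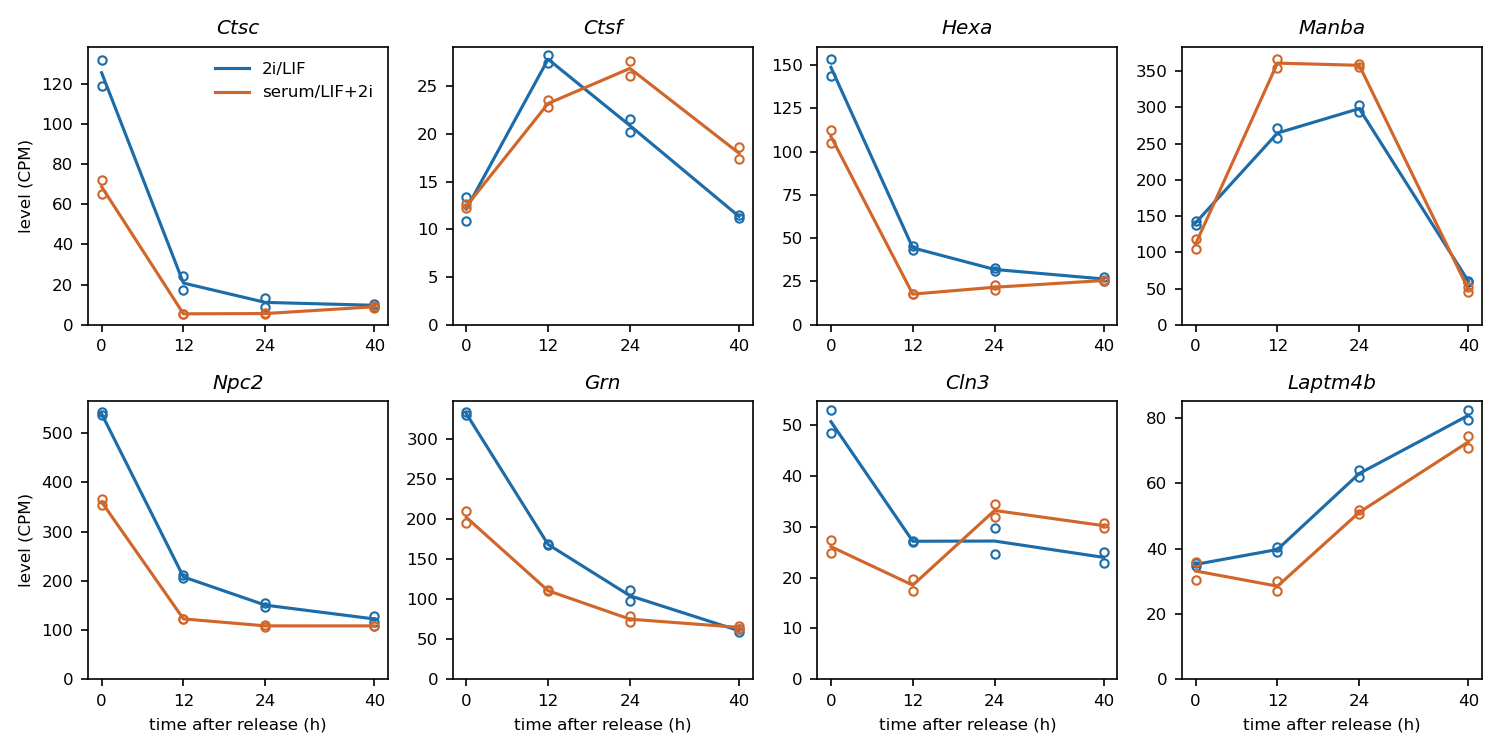
CPM of 8 members (1 panel each: Ctsc, Ctsf, Hexa, Manba, Npc2, Grn, Cln3, Laptm4b) by hours after exit, with 1 point per library and a line through the means, for 2i/LIF and serum/LIF+2i. Ctsc, Hexa, Npc2 and Grn drop early in both media, Manba and Ctsf rise at 12 and 24 h and then fall, Laptm4b rises, and Cln3 differs between the media.

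Counting of some members could be affected by neighbouring genes. In the GENCODE annotation of the same build, 7 members share at least 10% of their exon bases with another gene, and whether reads were counted by strand is not given in the sources used here. Ctsd shares 38.0% on its own strand with Gm49369. On the opposite strand Ctsl shares 27.5%, Ctsa 20.7%, Ctsb 16.3%, Hexa 12.8%, Npc1 10.8% and Cln3 10.5%. Near copies elsewhere were found for Cd63 (Cd63-ps, 98.0% identity over 858 bases), Laptm4b (Gm6705, 96.6% over 685 bases) and Mcoln1 (A230057D06Rik, 95% over 400 bases), so their counts are uncertain to that extent.

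Steps between neighbouring times show when the genes moved. Comparisons of neighbouring times were added after the values had been seen. From 12 to 24 h in 2i/LIF cells, 20 of 39 genes fell and 5 rose (all genes 17.7% and 17.4%), and from 24 to 40 h 18 fell and 8 rose (all genes 24.5% and 22.2%). In serum cells, 16 fell and 8 rose from 12 to 24 h (all genes 24.2% and 24.2%), and 7 fell and 13 rose from 24 to 40 h (all genes 24.6% and 25.9%). The median step of the members from 24 to 40 h was -0.19 in 2i/LIF cells and 0.023 in serum cells on the log2 scale, and that of all genes 0 and 0.011. Ctsc changed by -0.19 (not called) in 2i/LIF cells and by 0.69 (SE 0.19, adjusted p = 0.0012) in serum cells in that step. Ctsb fell by 0.47 in 2i/LIF cells and rose by 0.27 in serum cells, both called, and Hexa likewise changed by -0.27 and 0.23. Ctsl rose in both, by 0.25 and 0.66. Differences between the media in these steps were not tested as such.

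Serum cells had less of many lysosomal transcripts at 0 h than 2i/LIF cells. Differences here are serum/LIF+2i minus 2i/LIF. At 0 h 19 of 39 genes were lower and 2 higher in serum cells (all genes 18.4% and 14.6%). At 12 h 21 were lower and 2 higher (all genes 15.5% and 14.8%), and at 24 h 19 lower and 5 higher (all genes 17.0% and 14.1%). At 40 h 4 were lower and 10 higher (all genes 13.4% and 13.9%). The median log2 difference of the members was -0.26, -0.31, -0.26 and -0.046 at the 4 times, with medians of all genes from -0.012 to 0.011. The count at 40 h fell from 14 to 9 without serum/LIF+2i 40 h replicate 2 and to 8 in DESeq2. By class at 0 h, 5 of 9 proteases, 4 of 13 glycan-degrading enzymes, 4 of 8 lipid enzymes and luminal proteins and 6 of 9 membrane proteins were lower.

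The largest called differences at 0 h were those of Cln3, Ctsc and Grn. Cln3 had 52.9 and 48.5 CPM in 2i/LIF cells and 27.3 and 24.8 CPM in serum cells, a log2 difference of -0.96 (SE 0.10, adjusted p = 7.51e-14). Ctsc had 119 and 132 against 65.2 and 72.1 CPM, at -0.87 (SE 0.079, adjusted p = 9.06e-17). Grn had 333 and 329.6 against 194 and 209 CPM, at -0.71 (SE 0.048, adjusted p = 1.49e-26). The groups of each gene did not overlap. Npc1 differed by -0.60 (SE 0.077, adjusted p = 9.35e-11), Npc2 by -0.58 (SE 0.04, adjusted p = 1.26e-25), Ctsb by -0.46 (SE 0.046, adjusted p = 3.38e-15) and Hexa by -0.45 (SE 0.062, adjusted p = 8.21e-10). Gaa was higher in serum cells at all 4 times, with 69.3 and 76.7 against 103 and 116 CPM at 0 h, at 0.58 (SE 0.074, adjusted p = 6.97e-11). Psap was higher by 0.18 (SE 0.039, adjusted p = 7.32e-05).

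Among smaller differences at 0 h, 4 calls of members named here were lost when single libraries were left out. Cd63, at -0.21 (SE 0.076, adjusted p = 0.0223), was -0.084 (adjusted p = 0.562) without 2i/LIF replicate 1 and -0.20 (adjusted p = 0.0994) without serum/LIF+2i replicate 2. Ctsl, at -0.16 (SE 0.046, adjusted p = 0.00383), was -0.087 (adjusted p = 0.281) without 2i/LIF replicate 2 and -0.13 (adjusted p = 0.068) without serum/LIF+2i replicate 1. Mcoln1, at -0.32 (SE 0.11, adjusted p = 0.0129), was -0.27 (adjusted p = 0.127) without 2i/LIF replicate 2 and -0.29 (adjusted p = 0.0905) without serum/LIF+2i replicate 2. Lamp1, at -0.15 (SE 0.038, adjusted p = 0.000987), was -0.10 (adjusted p = 0.0692) without serum/LIF+2i replicate 2. DESeq2 called neither Cd63 nor Mcoln1 at 0 h, with adjusted p of 0.135 and 0.0738.

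At 12 h the gap was widest for Ctsc, with 24.4 and 17.1 CPM in 2i/LIF cells and 5.54 and 5.32 CPM in serum cells, at -1.93 (SE 0.17, adjusted p = 7.53e-17). Hexa had 43.3 and 45.6 against 17.8 and 17.6 CPM, at -1.33 (SE 0.10, adjusted p = 5.33e-22), and Glb1 85.1 and 86.9 against 39.7 and 47.7 CPM, at -0.96 (SE 0.074, adjusted p = 3.1e-22). By 40 h Ctsc had 9.02 and 10.3 against 9.39 and 8.52 CPM and was not called, at -0.10 (SE 0.17; 95% interval -0.45 to 0.24; adjusted p = 0.707), and Hexa was not called either, at -0.046 (SE 0.1; 95% interval -0.24 to 0.15; adjusted p = 0.782). The 10 genes higher in serum cells at 40 h were Ctsd, Ctsf, Ctsl, Tpp1, Gaa, Psap, Asah1, Lamp1, Cln3 and Mcoln1, by 0.15 (Ctsd) to 0.67 (Ctsf). The 4 lower were Lgmn, Glb1, Manba and Npc2, by -0.29 (Manba) to -0.18 (Npc2).

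**Figure D4:**
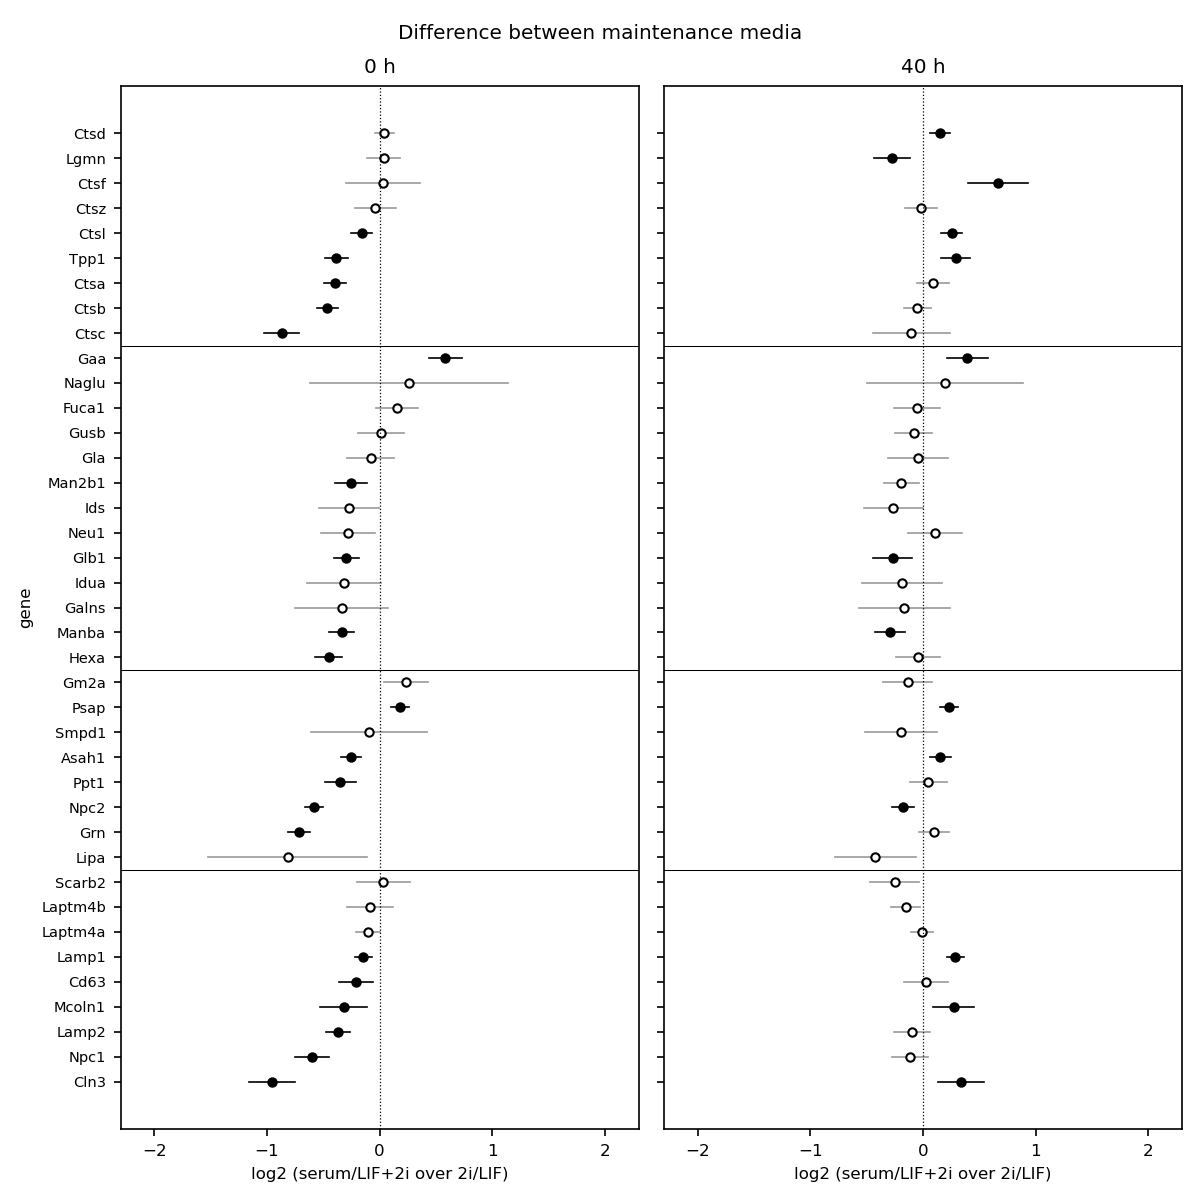
Log2 difference between serum/LIF+2i and 2i/LIF (x axis) for the 39 tested genes (y axis, by class) at 0 h and at 40 h, with 95% intervals and filled points for calls. At 0 h most points lie left of 0 (19 called lower), and at 40 h 23 points lie left and 16 right of 0 (4 called lower and 10 higher).

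Whether the size of the exit change differed between serum cells and 2i/LIF cells was tested as an interaction. It is the exit change in serum cells minus that in 2i/LIF cells. These cells also differed in the exit medium base, so dependence on the maintenance medium alone could not be tested. At 12 h 12 of 39 genes had a negative and 1 a positive interaction (all genes 4.40% and 4.80%). At 24 h the counts were 6 and 7 (all genes 11.0% and 9.77%), and at 40 h 1 and 16 (all genes 12.8% and 14.8%). The 3 tests share the 0 h libraries, and each is the difference of the medium comparisons at 2 times. The 12 h count fell from 13 to 7 without 2i/LIF 0 h replicate 2, and to 6 in DESeq2.

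At 12 h the genes with a negative interaction were lower by more in serum cells, with the exception of Scarb2, which rose by less, and of Laptm4b, which was called in neither medium. They included Ctsc at -1.06 (SE 0.20, adjusted p = 3.26e-05), Hexa at -0.88 (SE 0.12, adjusted p = 8.97e-09), Glb1 at -0.67 (SE 0.094, adjusted p = 1.55e-08) and Ctsl at -0.47 (SE 0.07, adjusted p = 2.09e-07). Manba was the 1 gene with a positive value, 0.79 (SE 0.07, adjusted p = 8e-17), since it rose more in serum cells. At 40 h the sign had turned for several of them, with Ctsc at 0.77 (SE 0.19, adjusted p = 0.000876), Hexa at 0.41 (SE 0.12, adjusted p = 0.00453) and Ctsl at 0.41 (SE 0.066, adjusted p = 2.73e-07), and Glb1 was not called, at 0.024 (SE 0.11; 95% interval -0.19 to 0.23; adjusted p = 0.904).

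At 40 h proteases, luminal proteins and membrane proteins carried most of the 16 positive interactions: 6 of 9, 4 of 8 and 5 of 9, against 1 of 13 glycan-degrading enzymes (all genes 14.8%). Cln3 had the largest value, 1.29 (SE 0.15, adjusted p = 9.92e-13). Grn followed with 0.81 (SE 0.082, adjusted p = 3.46e-15), Ctsc with the value above, and Tpp1 with 0.67 (SE 0.083, adjusted p = 2.56e-11). Lamp1 had 0.43 (SE 0.054, adjusted p = 5.62e-11) and Npc2 0.40 (SE 0.064, adjusted p = 1.47e-07). Lgmn alone was negative, at -0.31 (SE 0.11, adjusted p = 0.0241). Ctsf, at 0.64 (SE 0.22, adjusted p = 0.0174), was not called without 2i/LIF 0 h replicate 2 (0.47, adjusted p = 0.193), nor without 2i/LIF 40 h replicate 1 (0.61, adjusted p = 0.0571), serum/LIF+2i 0 h replicate 1 (0.61, adjusted p = 0.053) or 40 h replicate 1 (0.59, adjusted p = 0.0575). Hexa was not called without 2i/LIF 40 h replicate 1 (0.34, adjusted p = 0.0586). Lamp2, at 0.27 (SE 0.095, adjusted p = 0.0254), lost its call without any 1 of 5 libraries: 2i/LIF 0 h replicate 1 (0.27, adjusted p = 0.057), 2i/LIF 0 h replicate 2 (0.27, adjusted p = 0.055), 2i/LIF 40 h replicate 1 (0.15, adjusted p = 0.333), serum/LIF+2i 0 h replicate 1 (0.23, adjusted p = 0.0682) and serum/LIF+2i 40 h replicate 2 (0.24, adjusted p = 0.105).

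Lysosomal genes outside the 41 were given by lists. Of 22 other lysosomal hydrolases, 13 of 19 tested genes were lower and 1 higher at 40 h in 2i/LIF cells (all genes 34.7% and 34.1%), and 12 lower and 3 higher in serum cells (all genes 35.3% and 35.3%). The median log2 change was -1.16 and -0.71. Dnase2a, the lysosomal DNase, changed by -2.18 (SE 0.10, adjusted p = 1.57e-41) and -1.89 (SE 0.10, adjusted p = 4.79e-35), and Scpep1, a serine carboxypeptidase, by -1.22 (SE 0.045, adjusted p = 2.13e-50) and -0.95 (SE 0.043, adjusted p = 3.19e-42). Of 12 other lysosomal membrane proteins, 7 of 11 tested genes were lower and 1 higher at 40 h in 2i/LIF cells, and 7 lower and 0 higher in serum cells, against the same shares over all genes. Ostm1, partner of the lysosomal chloride transporter Clcn7, changed by -1.30 (SE 0.10, adjusted p = 1.05e-22) and -1.13 (SE 0.099, adjusted p = 7.74e-20). Slc29a3, a nucleoside transporter, changed by -1.26 (SE 0.13, adjusted p = 4.67e-16) and -1.60 (SE 0.13, adjusted p = 6.08e-23), and Tmem192, a membrane protein of late endosomes and lysosomes, by -0.96 (SE 0.10, adjusted p = 3.74e-15) and -1.01 (SE 0.093, adjusted p = 1.86e-18).

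The machinery that tags and delivers hydrolases was measured with 10 genes. Of these, 7 of 10 tested genes were lower and 1 higher at 40 h in 2i/LIF cells (all genes 34.7% and 34.1%), and 5 lower and 1 higher in serum cells (all genes 35.3% and 35.3%). The median log2 change was -0.52 and -0.11. Sort1, sortilin, a receptor that carries hydrolases and Psap from the Golgi, had 4.48 and 4.86 CPM before exit, 11.9 and 11.5 after 12 h, 24.2 and 23.7 after 24 h and 97.8 and 87.5 after 40 h in 2i/LIF cells, and 7.20 and 6.32 CPM before exit, 20.1 and 21.0 after 12 h, 36.6 and 37.4 after 24 h and 90.1 and 91.2 after 40 h in serum cells. All later libraries were above those of 0 h. At 40 h Sort1 was 19.8-fold and 13.4-fold higher, at 4.30 (SE 0.13, adjusted p = 1.36e-59) and 3.74 (SE 0.11, adjusted p = 1.73e-59). The mannose phosphate receptors M6pr and Igf2r were lower in 2i/LIF cells, at -0.67 (SE 0.048, adjusted p = 5.31e-26) and -0.59 (SE 0.054, adjusted p = 4.35e-18). In serum cells M6pr was at -0.13 (SE 0.045, adjusted p = 0.00974) and Igf2r, not called, at 0.029 (SE 0.051, adjusted p = 0.62). Of 4 cystatins, inhibitors of cysteine cathepsins, 2 were tested, and both were lower in both media: Cst3 at -1.99 and -1.82, and Cstb at -1.33 and -1.33.

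Of 7 MiT/TFE factors and folliculin regulators, 5 of 6 tested genes were lower and 1 higher at 40 h in 2i/LIF cells (all genes 34.7% and 34.1%), and 3 lower and 2 higher in serum cells (all genes 35.3% and 35.3%). The median log2 change was -0.98 and -0.20, and with 6 genes the counts in serum cells lie near the shares over all genes. Mitf had 78.2 and 73.8 CPM before exit, 15.3 and 12.7 after 12 h, 2.08 and 4.41 after 24 h and 2.13 and 1.09 after 40 h in 2i/LIF cells. Levels in serum cells were 81.5 and 87.5 CPM before exit, 17.2 and 13.9 after 12 h, 3.10 and 2.65 after 24 h and 3.02 and 2.42 after 40 h. Tfeb had 44.5 and 46.8 CPM before exit, 14.7 and 20.7 after 12 h, 11.0 and 6.53 after 24 h and 7.89 and 6.52 after 40 h in 2i/LIF cells, and 32.6 and 32.3 CPM before exit, 12.2 and 11.7 after 12 h, 5.53 and 6.22 after 24 h and 6.12 and 6.29 after 40 h in serum cells. Both were called lower at every later time. Mitf was 46.2-fold and 30.7-fold lower at 40 h, at -5.53 (SE 0.17, adjusted p = 9.82e-56) and -4.94 (SE 0.14, adjusted p = 4.04e-61), and Tfeb 6.30-fold and 5.23-fold lower, at -2.66 (SE 0.14, adjusted p = 6.63e-34) and -2.39 (SE 0.14, adjusted p = 2.43e-30). Tfe3 moved the other way, with 118 and 110.1 CPM before exit, 157 and 151 after 12 h, 201 and 194 after 24 h and 203 and 196 after 40 h in 2i/LIF cells, and 116 and 118 CPM before exit, 129 and 136 after 12 h, 214 and 207 after 24 h and 232 and 232 after 40 h in serum cells. It was 1.76-fold and 1.98-fold higher, at 0.81 (SE 0.052, adjusted p = 1.85e-29) and 0.98 (SE 0.048, adjusted p = 5.03e-39). These are RNA levels, and the activity of these factors is also set by their place in the cell, which was not measured. Flcn, folliculin, was lower in 2i/LIF cells at -0.81 (SE 0.08, adjusted p = 5.35e-17) and not called in serum cells at 0.04 (SE 0.078, adjusted p = 0.653). Its partners Fnip1 and Fnip2 were at -1.15 (SE 0.079, adjusted p = 4e-27) and -0.52 (SE 0.07, adjusted p = 7.99e-11) in 2i/LIF cells, and at -0.44 (SE 0.071, adjusted p = 3.56e-08) and 0.22 (SE 0.069, adjusted p = 0.00388) in serum cells. The 3 genes had positive interactions at 40 h, 0.85, 0.72 and 0.73, all called.

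**Figure D5:**
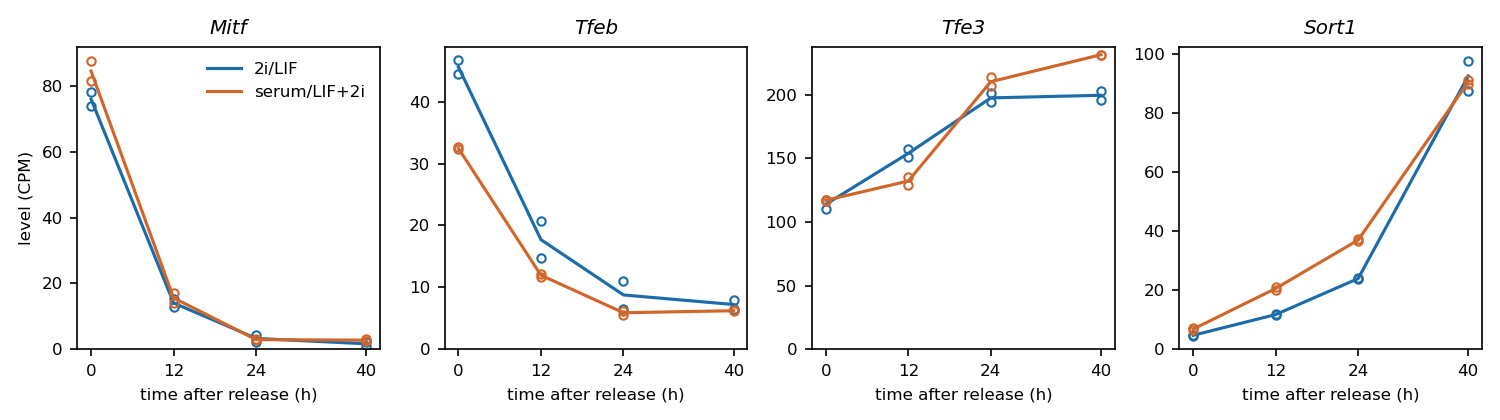
CPM of Mitf, Tfeb, Tfe3 and Sort1 (1 panel each) by hours after exit, with 1 point per library and a line through the means, for 2i/LIF and serum/LIF+2i. Mitf and Tfeb fall to low levels by 40 h, while Tfe3 and Sort1 rise in both media.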

How the data were processed

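RNA was extracted with TRIzol and made into stranded poly(A) libraries, per the labels' protocols. The submitters' processing notes name fastp, STAR, featureCounts and mm10, with no settings, and the annotation and strand setting are not given in the sources used here. The authors deposited raw counts per gene with Entrez identifiers, symbols and gene lengths, per the file headers. All value columns belonged to a library, so 0 were set aside.

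Genes were filtered with filterByExpr (minimum count 10, minimum total 15) and scaled by TMM in edgeR 4.0.16 (R 4.3.3). All 16 libraries were fitted in 1 model with 8 residual degrees of freedom, tested with the two-sided quasi-likelihood F test with robust estimation, and adjusted over 14288 genes. Standard errors were derived from the F statistic and 95% intervals from its moderated t quantile. CPM uses TMM-scaled totals and RPKM the deposited lengths. There were 17 comparisons, 4 of them added after the values were seen. The script was tested on simulated data. Alternatives were DESeq2 1.42.0, other scalings and filters, a replicate block and leaving out each library.

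Members and lists were chosen with earlier results of these data known. All 41 members may be named. Per class, the 3 with the smallest adjusted p at 40 h in each medium, the 2 with the smallest for the medium difference at 0 h and for the interaction at 40 h, and those called against their class get values by library, as do others where a result turns on them. Per outside list up to 3 genes with the smallest adjusted p at 40 h in 2i/LIF were named, and Flcn, Fnip1 and Fnip2 were chosen after their values were seen. A gene that this rule picks is not reported here. Replicate pairs differed by more than sampling noise (chi-square per degree of freedom 1.41 to 5.82) and were counted as separate samples, as labelled. This does not show that they came from separate cultures or libraries. Counting error limits the precision of genes with few counts.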

Additional observations from a re-analysis of the deposited data

Results flagged for a closer look

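For 26 members the exit change in serum/LIF+2i differed from that in 2i/LIF at 1 or more times, by the interaction test in edgeR. The share of all genes called at 1 or more times was not computed, so this count has no background. At single times, 4.40% of all genes were negative and 4.80% positive at 12 h. The shares were 11.0% and 9.77% at 24 h, and 12.8% and 14.8% at 40 h. Values are log2 differences of the exit changes, serum/LIF+2i minus 2i/LIF. At 12 h the interaction was negative for Hexa (-0.88), Glb1 (-0.67), Ctsl (-0.47), Ctsc (-1.06), Psap (-0.24), Ctsb (-0.29), Cd63 (-0.49), Scarb2 (-0.54), Lamp2 (-0.33), Gm2a (-0.52), Laptm4b (-0.40) and Npc2 (-0.18), and positive for Manba (0.79). Adjusted p ran from 8e-17 (Manba) to 0.0499 (Npc2). Laptm4b and Npc2 were close to the threshold.

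At 24 h it was negative for Gm2a (-0.76), Ctsb (-0.33), Psap (-0.23), Scarb2 (-0.56), Gla (-0.57) and Fuca1 (-0.49). It was positive for Cln3 (1.25), Manba (0.60), Asah1 (0.36), Tpp1 (0.40), Mcoln1 (0.59), Grn (0.24) and Npc1 (0.35). Adjusted p ran from 5.63e-12 (Cln3) to 0.019 (Npc1). For Cln3 the exit change was lower in 2i/LIF and higher in serum/LIF+2i at that time.

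At 40 h it was positive for Grn (0.81), Cln3 (1.29), Tpp1 (0.67), Lamp1 (0.43), Npc2 (0.40), Ctsl (0.41), Asah1 (0.41), Ctsa (0.49), Ctsb (0.41), Npc1 (0.49), Mcoln1 (0.59), Ctsc (0.77), Ppt1 (0.40), Hexa (0.41), Ctsf (0.64) and Lamp2 (0.27). Lgmn (-0.31) had the 1 negative value. Adjusted p ran from 3.46e-15 (Grn) to 0.0254 (Lamp2). Scarb2, Psap and Gm2a were negative at both 12 and 24 h and not called at 40 h, whereas Ctsb was negative at 12 and 24 h and positive at 40 h.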

How the results depend on the processing

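The number of called members stayed within 1.5 times in all comparisons and alternatives run, with 4 exceptions. DESeq2 called 8 members for the medium at 40 h and 6 for the interaction at 12 h, where edgeR called 14 and 13. Leaving out 1 library gave 9 to 13 members for the medium at 40 h and 7 to 12 for the interaction at 12 h. The 25 named members were followed in 4 comparisons: exit at 40 h in each medium, the medium at 0 h and the interaction at 40 h. There, 1256 results under alternatives kept their side of the threshold, 33 lost a call, 11 gained one, and no called direction turned. Single-gene results in the other comparisons, and those of genes outside the members, were not checked in this way. DESeq2 called 3115, 2668, 2729 and 2010 genes of all tested for the medium at 0, 12, 24 and 40 h (edgeR 4710, 4334, 4439 and 3897) and 574, 1789 and 2419 for the interactions (edgeR 1315, 2966 and 3940). Without 2i/LIF 40 h replicate 1 edgeR called 2240 for the medium at 40 h. The cause was not tested. Replicate numbers did not pair libraries: deviations of same-numbered libraries correlated at -0.023 to 0.033 over 28 pairs of groups, 0 of them over 0.1. With the replicate number as a block the called members were 35 and 35 at 40 h after exit in 2i/LIF and serum/LIF+2i, 21 for the medium at 0 h and 17 for the interaction at 40 h, as without it. Few counts limit Naglu, Lipa, Smpd1, Ctsh and Ctso. With 2 libraries per group, tests rest on a spread shared over all groups.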

Other observations

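Laptm5, a lysosomal membrane protein of blood cells related to Laptm4a and Laptm4b and listed here as a macrophage marker, was chosen after its values were seen. It had 233 and 237 CPM before exit, 162 and 157 after 12 h, 82.0 and 77.8 after 24 h and 17.9 and 13.9 after 40 h in 2i/LIF, and 205 and 197 CPM before exit, 186 and 186 after 12 h, 64.7 and 66.0 after 24 h and 10.5 and 9.0 after 40 h in serum/LIF+2i. Every later library was below those of 0 h of its medium. Laptm5 was 14.7-fold and 20.5-fold lower at 40 h, at -3.88 (SE 0.075, adjusted p = 1.35e-79) and -4.36 (SE 0.077, adjusted p = 3.16e-84) (edgeR). Of the 3 relatives, Laptm5 fell, Laptm4b rose and Laptm4a was not called.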
